A study of Mus musculus with 12 samples.

Results

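The genes described here are 6 markers of neuroblasts and immature neurons, Dcx, Igfbpl1, Cd24a, Dlx1, Dlx2 and Sox4, followed across 12 RNA-seq libraries of mouse peri-infarct cortex. They were taken by symbol from a table of read counts for 25238 genes, and all 6 were found. The libraries came from 12 mice, 1 library per mouse, in groups of 4. ISP mice had received intracellular sigma peptide, a membrane-permeable peptide that binds the chondroitin sulfate proteoglycan receptor PTPσ, at 1 μg/g/day from the day after a transient occlusion of the left middle cerebral artery, and Veh mice had the same stroke and received 5% DMSO in saline. The methods and sample labels name vehicle for these mice, while the study's own account of the sequencing names a scrambled peptide. Both groups were harvested at day 14 post-stroke. The remaining 4 libraries are labelled control, with peri-infarct cortex as their tissue. Their records carry the stroke protocol text, but no surgery, treatment or day of their own is given in the sources used here. Comparisons with these libraries therefore hold under that label only. The stroke model used young adult mice, either C57BL/6J males or mice carrying the nestin-CreER and Ai9 alleles, with which tamoxifen labels nestin-expressing stem cells and their progeny. For the mice with these alleles, the study's account of its animals names both sexes. Which strain gave the sequenced tissue is not given. The question was whether RNA of these 6 genes in tissue near the infarct differed with ISP treatment and from the control libraries. Which cells of the bulk tissue the RNA came from, newborn neurons or others, was not tested.

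New neurons arise in the adult rodent brain from stem cells of the subventricular zone and the dentate gyrus, and after stroke, neuroblasts of the subventricular zone can leave their usual route to the olfactory bulb and enter injured striatum and cortex. Doublecortin, the product of Dcx, is a microtubule-associated protein of migrating neuroblasts. Igfbpl1 encodes a secreted relative of the insulin-like growth factor binding proteins, and Cd24a encodes a small membrane-anchored glycoprotein that is found on neuroblasts and also on ependymal cells of the ventricle wall. Dlx1 and Dlx2 encode homeodomain factors of GABAergic neuroblasts, and Dlx1 stays on in some mature interneurons of the cortex. Sox4 encodes a SoxC transcription factor of immature neurons that other cell types also use.

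Dlx1 and Dlx2 are paralogs, neighbours on opposite strands of chromosome 2, so the stretch of their coding sequences that is most alike is shown to see how far reads from one could be taken for the other. The bases that differ are in capitals. In the GENCODE M21 annotation of GRCm38, the Dlx1 stretch runs over 2 exons between positions 71531026 and 71532308 of chromosome 2 and covers bases 383 to 558 of a 765-base coding sequence. The Dlx2 stretch runs over 2 exons between positions 71544880 and 71545514 and covers bases 464 to 639 of a 996-base coding sequence. Both lie in the homeodomain-coding part of the gene.
Dlx1: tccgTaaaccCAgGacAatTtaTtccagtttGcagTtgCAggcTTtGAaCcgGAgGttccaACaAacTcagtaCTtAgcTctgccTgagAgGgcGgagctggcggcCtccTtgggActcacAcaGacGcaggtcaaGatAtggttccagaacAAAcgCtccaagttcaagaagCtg
Dlx2: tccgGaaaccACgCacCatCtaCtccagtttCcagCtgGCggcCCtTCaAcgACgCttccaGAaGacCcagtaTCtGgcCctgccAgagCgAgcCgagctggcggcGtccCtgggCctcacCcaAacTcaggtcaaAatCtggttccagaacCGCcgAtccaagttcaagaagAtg
The 176 aligned bases were 75.0% identical, with 44 mismatches, and the longest run the 2 stretches shared was 15 bases.

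The other genes lie apart from one another. In the same annotation Dcx spans X:143855842-143933311 on the minus strand, Igfbpl1 4:45809468-45826923 on the minus strand, Cd24a 10:43578284-43584265 on the plus strand and Sox4 13:28948919-28953713 on the minus strand, with Dlx1 at 2:71528113-71533981 on the plus strand and Dlx2 at 2:71543408-71546754 on the minus strand. The library protocol describes no strand marking, so reads over bases shared with an overlapping antisense transcript may have been counted for either gene or for none. How they were counted was not checked. Dlx1 shares 335 exon bases, 6.21% of its own, with the antisense transcript Dlx1as. Sox4 shares 2616 exon bases, 54.6% of its own, with the opposite-strand lincRNA Gm26735, which was not analysed here. Cd24a has a look-alike processed pseudogene, Gm6212, with 96.8% identity over 218 bases.

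Total counts per library were 19325979 to 28685864 in ISP mice, 17442711 to 24706638 in Veh mice and 21322702 to 29845629 in control mice. Levels are given as CPM, read counts scaled to a common library size with TMM factors. The libraries ISP 18 and Veh 6 stood apart by markers of the ventricle lining. The ependymal gene Tmem212 had 4.24 CPM in the library ISP 18 and 1.93 CPM in Veh 6 and was at 0 in the other 10, and Ccdc153 had 6.65 and 4.74 CPM in these libraries and at most 0.103 CPM elsewhere. Markers of cortical excitatory neurons, the main neurons of the labelled tissue, summed to 5385 to 6341 CPM in ISP mice, 6052 to 7404 CPM in Veh mice and 6227 to 6830 CPM in control mice. Ttr, the leading transcript of choroid plexus, had 1051 CPM in ISP 18 and 1540 CPM in Veh 6, with at most 1.07 CPM in any other library.

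None of the 5 genes that could be tested passed the test in any comparison. With edgeR's quasi-likelihood test and a Benjamini-Hochberg adjusted p under 0.1, 0 of 5 were called in ISP mice against Veh mice, 0 of 5 in Veh mice against control mice and 0 of 5 in ISP mice against control mice. The share of all tested genes called was 0% of 15214 for ISP against Veh, 2.23% of 15126 for Veh against control and 10.2% of 15232 for ISP against control. At an unadjusted p under 0.05 the genes again gave 0 of 5 in each comparison, where 15.3%, 16.3% and 22.3% of all tested genes passed. The groups did not overlap for 0 of the 5 genes, against 6.81%, 9.67% and 11.9% of all tested genes in the same order. DESeq2 called 0 of the 6 genes in the first comparison, with no p for Igfbpl1, 0 of 6 in the second and 1 of 6 in the third, Igfbpl1, beside 2.51%, 6.46% and 13.7% of all genes. The median log2 fold change of the 5 genes was 0.03 for ISP against Veh, 0.11 for Veh against control and 0.13 for ISP against control, with medians of 0.02, 0.02 and -0.01 over all tested genes. Each group enters 2 of the 3 comparisons, so the 3 sets of values share libraries.

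**Figure D1:**
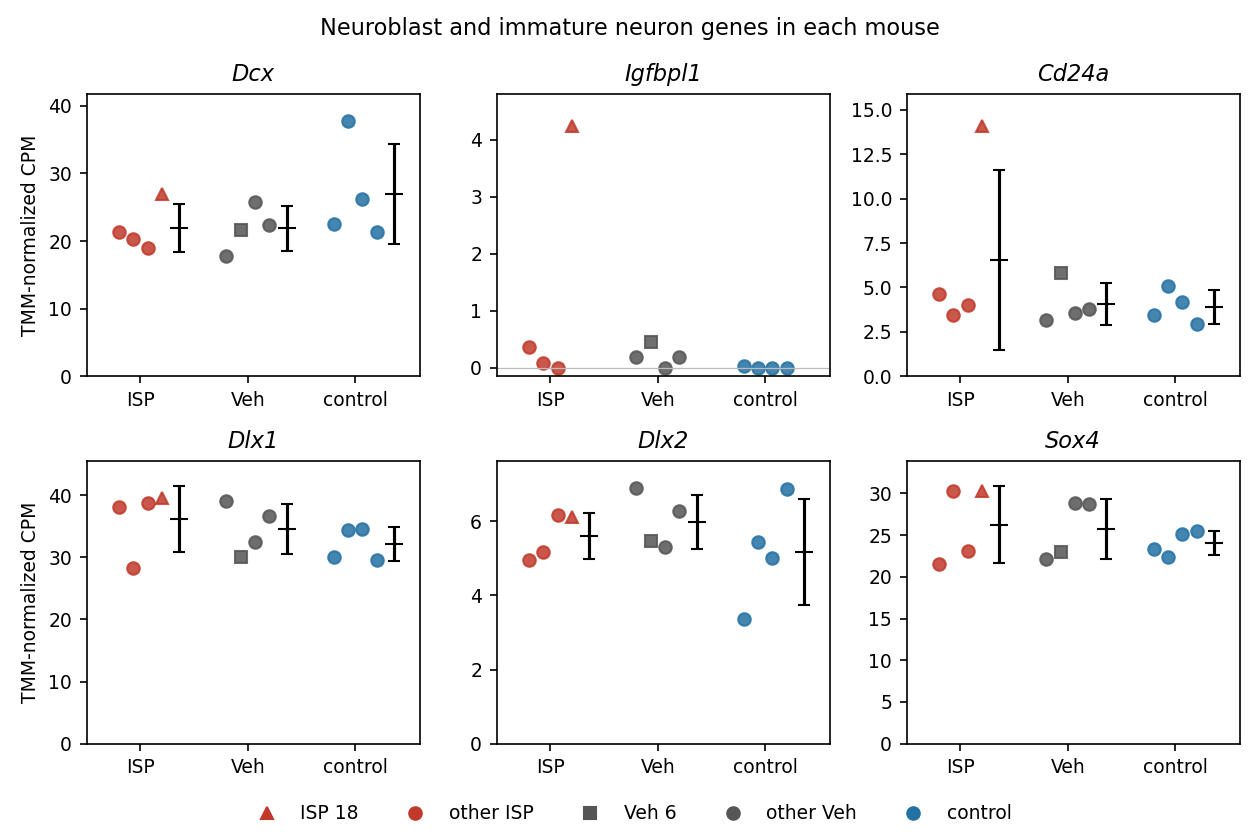
TMM-normalized CPM of each gene, with 1 point per mouse, in ISP, Veh and control mice. Black bars give the group mean and SD (n = 4) and are left out for Igfbpl1, which was at 0 in 5 libraries. ISP 18 (triangle) is far above the other ISP mice for Igfbpl1 at 4.24 CPM and for Cd24a at 14.1 CPM, and the groups overlap for all 6 genes.

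Dcx, the doublecortin gene, had the same mean level in stroke mice with and without the peptide. It had 21.3, 20.3, 19.0 and 27.0 CPM in ISP mice 12, 14, 16 and 18, against 17.7, 21.6, 25.8 and 22.3 CPM in Veh mice 2, 6, 8 and 10. Control mice 19, 21, 36 and 38 had 22.5, 37.7, 26.2 and 21.4 CPM. The highest value was that of control 21, and the 3 groups overlapped. The means were 21.9 ± 3.52 CPM in ISP mice and 21.9 ± 3.31 CPM in Veh mice (SD, n = 4 each), and the log2 fold change was 0.00 (SE 0.14, edgeR adjusted p = 0.997). Its 95% confidence interval of -0.31 to 0.31 corresponds to a fold change between 0.807 and 1.24. Against the control mean of 27.0 ± 7.47 CPM, the log2 fold change was -0.30 in ISP mice (SE 0.17, adjusted p = 0.346) and -0.29 in Veh mice (SE 0.17, adjusted p = 0.436). Without ISP 18 the ISP mean was 20.2 ± 1.14 CPM (n = 3), and the log2 fold change against control was -0.42 (edgeR, unadjusted p = 0.036, adjusted p = 0.256). Without control 21, the highest library, it was -0.10 in ISP mice (adjusted p = 0.734) and -0.09 in Veh mice (adjusted p = 0.840).

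Igfbpl1 reads came mostly from 1 mouse. The gene had 7, 2, 0 and 125 reads in ISP mice 12, 14, 16 and 18, against 3, 11, 0 and 4 reads in Veh mice 2, 6, 8 and 10. Control mice 19, 21, 36 and 38 had 1, 0, 0 and 0 reads. Of the 153 reads in all 12 libraries, 81.7% were in ISP 18. On the CPM scale ISP 18 had 4.24 (exact Poisson 95% interval 3.53 to 5.05, counting error only), which was 9.60 times the next highest library, Veh 6, at 0.442 CPM (interval 0.221 to 0.790). A library with 0 reads allows up to 3 reads, or 0.127 to 0.145 CPM in the 5 such libraries. Without ISP 18 the ISP mice held 9 reads, against 18 in the Veh mice.

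Igfbpl1 did not pass the filter on low counts in any of the 3 comparisons. With no filter its edgeR adjusted p was 0.428 for ISP against Veh and 0.212 for Veh against control. For ISP against control it was 0.042, and DESeq2 gave an adjusted p of 0.066. Without ISP 18 the edgeR value without a filter was 0.344, and DESeq2 gave an unadjusted p of 0.139 and no adjusted one. No fold change is given, because the control mice held 1 read in all. The log2 gap from ISP 18 to the next highest library was 3.03.

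Cd24a, the membrane glycoprotein gene, was likewise highest in ISP 18. It had 4.64, 3.45, 4.01 and 14.1 CPM in ISP mice 12, 14, 16 and 18, against 3.15, 5.82, 3.54 and 3.77 CPM in Veh mice 2, 6, 8 and 10. Control mice 19, 21, 36 and 38 had 3.43, 5.10, 4.16 and 2.93 CPM. The other 3 ISP mice lay within the range of the Veh and control mice, and Veh 6 was the second highest of the 12. The log2 gap from ISP 18 to Veh 6 was 1.26, and 20 of the 15543 genes tested across the 12 libraries, 0.129%, had a gap at least as large.

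The mean Cd24a level was 6.55 ± 5.06 CPM in ISP mice, 4.07 ± 1.20 CPM in Veh mice and 3.91 ± 0.943 CPM in control mice (SD, n = 4 each). The log2 fold change of ISP against Veh was 0.69 (SE 0.43, edgeR adjusted p = 0.456), with a 95% interval of -0.26 to 1.63, or a fold change between 0.838 and 3.10. Without ISP 18 it was -0.02 (SE 0.28, adjusted p = 0.983), and the ISP mean was 4.03 ± 0.593 CPM (n = 3). The log2 fold change of ISP against control was 0.76 (SE 0.41, adjusted p = 0.309) with ISP 18 and 0.04 (SE 0.26, adjusted p = 0.960) without it. For Veh against control it was 0.08 (SE 0.26, adjusted p = 0.918). In bulk tissue a difference in the number of cells of a type and a difference in RNA per cell cannot be told apart.

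**Figure D2:**
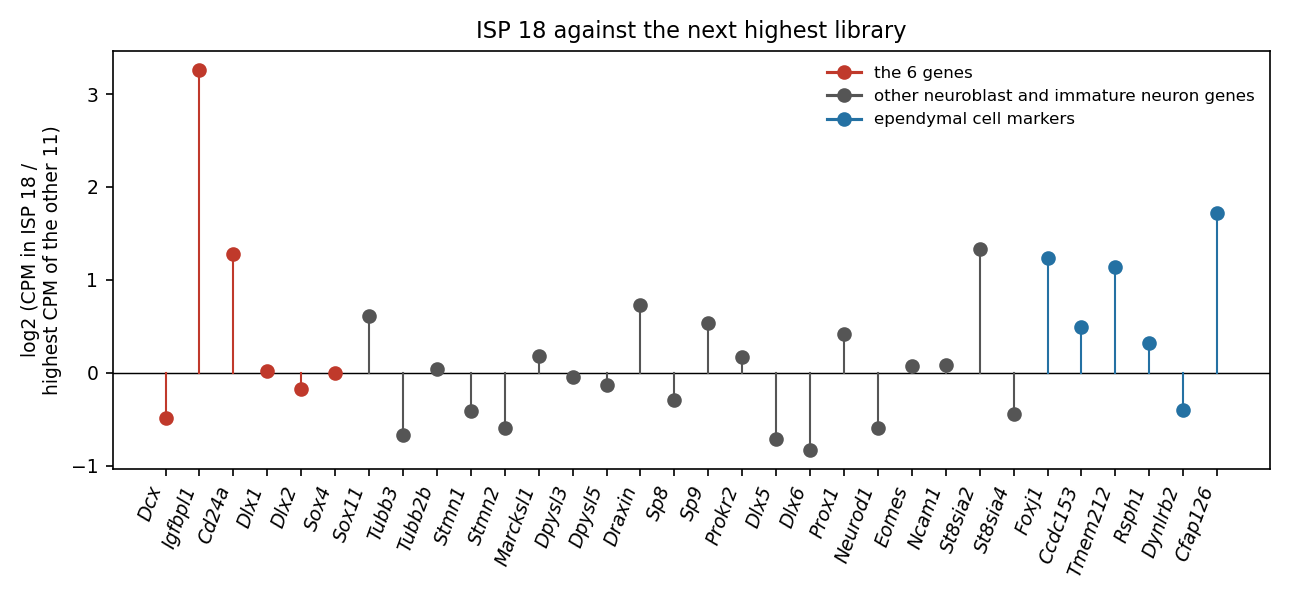
Log2 ratio of the CPM in ISP 18 to the highest CPM among the other 11 libraries, for the 6 genes (red), 20 other neuroblast and immature neuron genes (grey) and 6 ependymal cell markers (blue). Values above 0 mean that ISP 18 was the highest of the 12, as it was clearly for Igfbpl1 and Cd24a and not for Dcx or Dlx2.

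The 2 libraries highest for Igfbpl1 and for Cd24a, ISP 18 and Veh 6, were also the 2 highest for the ependymal and choroid plexus markers. The 6 ependymal markers summed to 8.25 to 54.9 CPM in ISP mice, 5.82 to 28.4 CPM in Veh mice and 5.74 to 7.68 CPM in control mice, with ISP 18 and Veh 6 at the top of their groups. At least 1 of the 6 was at 0 in each of the other 10 libraries. The 5 choroid plexus markers summed to 0.386 to 1157 CPM in ISP mice, 0.726 to 1691 CPM in Veh mice and 0.515 to 0.935 CPM in control mice. Choroid plexus markers were higher in Veh 6 than in ISP 18, and Igfbpl1 and Cd24a were higher in ISP 18. ISP 18 was also the highest library for 12 of 12 oligodendrocyte markers, 8 of 12 stem and progenitor genes and 4 of 7 tested striatal neuron markers, against 2399 of 15543 genes, 15.4%, overall. In ISP against control, 10 of 12 oligodendrocyte markers, 11 of 12 tested markers of activated microglia and macrophages and 9 of 10 interferon-induced genes rose. Of all tested genes, 6.74% rose in this comparison. With 1 library left out, the oligodendrocyte count was 4 without ISP 14, 4 without ISP 18, 2 without control 19 and 2 without control 38, and the microglia and macrophage count was 6 without ISP 14, 7 without ISP 18 and 7 without control 38. The interferon-induced count was at least 8 with any one of the 8 libraries left out. In Veh against control, 0 of 12 oligodendrocyte markers, 1 of 10 tested microglia and macrophage markers and 4 of 10 interferon-induced genes rose. Of all tested genes, 1.03% rose there. The interferon-induced count there was 1 without Veh 10 and 0 without Veh 2, control 21, control 36 or control 38. The microglia and macrophage count there was 4 without Veh 6 or without Veh 8. In ISP against Veh, 0 genes of these 3 lists passed, and without Veh 6, 2 oligodendrocyte markers rose. The part of these cell types in the Igfbpl1 and Cd24a values was not tested.

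The homeobox genes Dlx1 and Dlx2 passed the test in no comparison. Dlx1 had 38.0, 28.3, 38.8 and 39.6 CPM in ISP mice 12, 14, 16 and 18, against 39.0, 30.1, 32.4 and 36.7 CPM in Veh mice 2, 6, 8 and 10. Control mice 19, 21, 36 and 38 had 30.0, 34.4, 34.5 and 29.6 CPM. ISP 14 was low among ISP mice, below the lowest Veh and control mice, and the other 3 ISP mice were close together. The means were 36.2 ± 5.30 CPM in ISP mice, 34.6 ± 4.03 CPM in Veh mice and 32.1 ± 2.68 CPM in control mice (SD, n = 4 each). The log2 fold change was 0.07 for ISP against Veh (SE 0.12, edgeR adjusted p = 0.820, fold interval 0.869 to 1.26), 0.11 for Veh against control (adjusted p = 0.639) and 0.17 for ISP against control (adjusted p = 0.428). Reads of Dlx1 and of its antisense partner Dlx1as stood in a ratio of 0.878 to 1.29 in ISP mice, 0.845 to 0.989 in Veh mice and 0.755 to 1.17 in control mice, and these ranges overlapped.

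Dlx2, the neighbour of Dlx1, passed the test in no comparison. It had 4.95, 5.18, 6.18 and 6.11 CPM in ISP mice 12, 14, 16 and 18, against 6.88, 5.46, 5.31 and 6.27 CPM in Veh mice 2, 6, 8 and 10. Control mice 19, 21, 36 and 38 had 3.36, 5.45, 5.01 and 6.86 CPM. The control mice held both the lowest value and the second highest, and only Veh 2, at 6.88 CPM, lay outside their range. The log2 fold change was -0.09 for ISP against Veh (SE 0.18, edgeR adjusted p = 0.834, fold interval 0.712 to 1.24), 0.22 for Veh against control (adjusted p = 0.675) and 0.12 for ISP against control (adjusted p = 0.814). The number of Dlx1 reads per Dlx2 read was 5.46 to 7.69 in ISP mice, 5.51 to 6.10 in Veh mice and 4.31 to 8.94 in control mice.

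Sox4, the SoxC factor gene, passed the test in no comparison. It had 21.5, 30.2, 23.1 and 30.3 CPM in ISP mice 12, 14, 16 and 18, against 22.2, 23.0, 28.9 and 28.8 CPM in Veh mice 2, 6, 8 and 10. Control mice 19, 21, 36 and 38 had 23.4, 22.4, 25.1 and 25.5 CPM. The ISP and Veh mice each split into a lower and a higher pair, and the control mice fell between the extremes of both groups. The log2 fold change was 0.03 for ISP against Veh (SE 0.14, edgeR adjusted p = 0.938, fold interval 0.824 to 1.27), 0.11 for Veh against control (adjusted p = 0.707) and 0.13 for ISP against control (adjusted p = 0.617). The higher ISP pair, ISP 14 and ISP 18, were also the 2 libraries highest for the list of activated microglia and macrophage markers. The higher Veh pair was divided on that list. Among Veh mice its summed level was highest in Veh 10, at 1031 CPM, and lowest in Veh 8, at 565 CPM. The part of those cells in the Sox4 value was not tested.

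**Figure D3:**
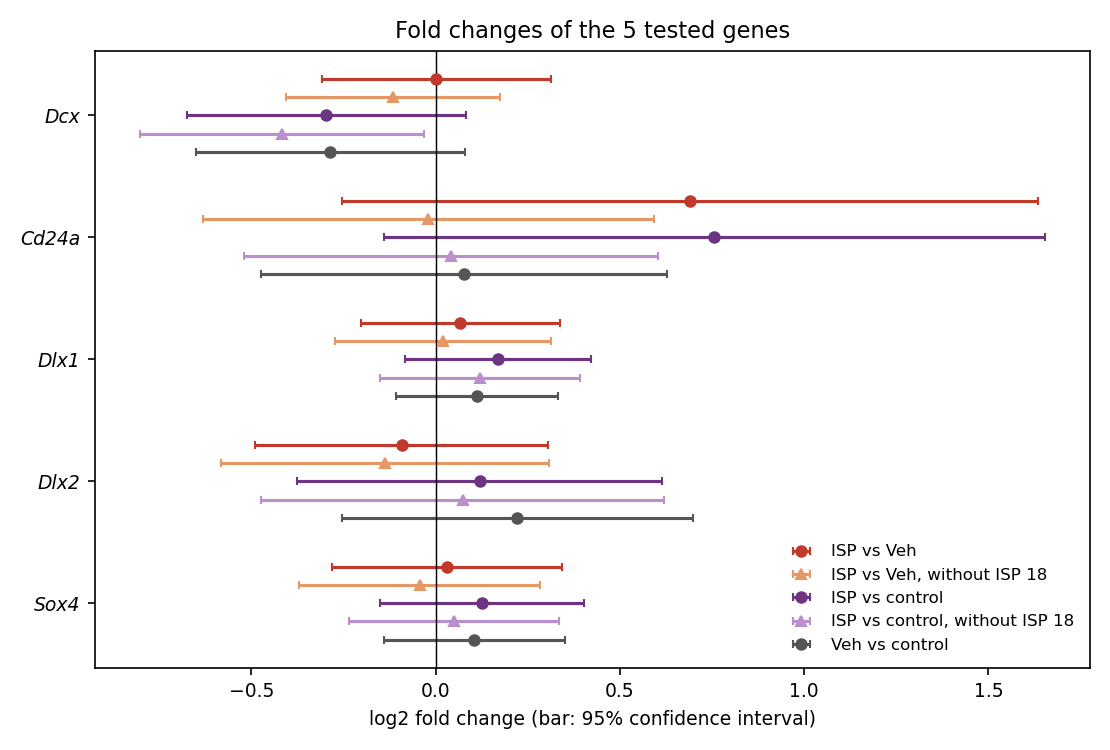
Log2 fold change of the 5 tested genes from edgeR, with a 95% confidence interval computed from the test's F statistic. Comparisons are ISP against Veh and ISP against control with and without ISP 18, and Veh against control. All intervals include 0 except that of Dcx in ISP against control without ISP 18 (-0.80 to -0.03), and the Cd24a estimates move to near 0 when ISP 18 is left out.

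Divided by exon length, the genes fell into the same upper and lower sets in all 3 groups. In ISP mice the order was Dlx1 at 6.70 ± 0.982, Sox4 at 5.48 ± 0.970, Cd24a at 2.54 ± 1.96, Dlx2 at 1.96 ± 0.221, Dcx at 1.73 ± 0.278 and Igfbpl1 at 0.360 ± 0.631 CPM per kb (mean ± SD, n = 4). Without ISP 18, Dlx2 at 1.90 ± 0.229 and Dcx at 1.60 ± 0.0901 came before Cd24a at 1.56 ± 0.230, and Igfbpl1 was at 0.0454 ± 0.0582 CPM per kb (n = 3). In Veh mice it was Dlx1 at 6.40 ± 0.746, Sox4 at 5.36 ± 0.754, Dlx2 at 2.10 ± 0.258, Dcx at 1.73 ± 0.262, Cd24a at 1.58 ± 0.464 and Igfbpl1 at 0.0622 ± 0.0559 CPM per kb. In control mice it was Dlx1 at 5.95 ± 0.496, Sox4 at 5.02 ± 0.306, Dcx at 2.13 ± 0.590, Dlx2 at 1.81 ± 0.505, Cd24a at 1.51 ± 0.366 and Igfbpl1 at 0.00264 ± 0.00528 CPM per kb. The intervals of mean ± SD of Dcx, Dlx2 and Cd24a overlapped in each group, and their order changed between groups. Those of Dlx1 and Sox4 overlapped in ISP and Veh mice and not in control mice.

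The 6 genes did not rise and fall together from mouse to mouse. Over the 12 libraries, Pearson's r of log2 CPM was 0.83 for Igfbpl1 with Cd24a and 0.39 without ISP 18, while it was 0.41 for Dcx with Cd24a (0.43 without ISP 18) and 0.40 for Dlx1 with Dlx2 (0.36 without it). Of the 15 pairs, Igfbpl1 with Cd24a was the highest with ISP 18 included and Dcx with Cd24a was the highest without it. By the same measure over 14459 genes, the genes most like Dcx were Usp24 (r = 0.96), Arid1b (0.90) and Xxylt1 (0.90), and those most like Igfbpl1 were Sorbs3 (0.93), Ccdc114 (0.93) and Dbndd2 (0.92). The genes most like Cd24a were Xrcc3 (0.93), Tns1 (0.92) and Dchs1 (0.92). All 6 of these neighbours of Igfbpl1 and Cd24a were highest in ISP 18, and without that library their r was 0.69 to 0.87. Dlx1 was most like Cnnm3 (0.87), Fam118a (0.81) and Spns3 (0.80), Dlx2 most like Dennd6b (0.92), Flii (0.86) and Polr3c (0.85), and Sox4 most like Baz1a (0.87), Csf2ra (0.87) and Ano6 (0.86). These are descriptions of 12 points that share their libraries, depth and groups, picked as the highest among many genes.

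Of 20 further neuroblast and immature neuron genes, 18 were tested in each comparison and 0 passed in any of them. With 1 library left out, 1 passed, Tubb3, which fell in ISP against control without control 21. The most abundant were Stmn1 and Stmn2, which encode microtubule-destabilizing stathmins, the neuronal tubulin gene Tubb3 and the adhesion molecule gene Ncam1. Whether these abundant RNAs came from immature or mature neurons, or from other cells, was not tested. Stmn1 averaged 666 ± 74.9 CPM in ISP mice and 745 ± 95.7 CPM in Veh mice (log2 fold change -0.16, edgeR adjusted p = 0.492), and Ncam1 averaged 259 ± 10.8 CPM in ISP mice and 237 ± 5.64 CPM in Veh mice (0.13, adjusted p = 0.365). Tubb3 averaged 450.3 ± 37.7 CPM in ISP mice and 541 ± 62.3 CPM in Veh mice (-0.27, adjusted p = 0.277), and Stmn2 averaged 393 ± 53.3 CPM in ISP mice and 447 ± 29.3 CPM in Veh mice (-0.18, adjusted p = 0.392). ISP 18 was the highest library for 9 of the 19 list genes tested across all libraries and the lowest for 3, Tubb3 (401 CPM), Stmn2 (322 CPM) and Dlx6. St8sia2, a polysialyltransferase gene chosen here after its values were seen, had 5.49 CPM in ISP 18, against at most 2.18 CPM elsewhere. Of the SoxC factors, Sox11 averaged 11.9 ± 3.97 CPM in ISP mice and 8.61 ± 1.06 CPM in Veh mice (log2 fold change 0.47, edgeR adjusted p = 0.324), with 17.8 CPM in ISP 18. Sox12 averaged 22.3 ± 4.52 CPM in ISP mice and 26.2 ± 3.07 CPM in Veh mice (-0.23, adjusted p = 0.461).

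Of 16 doublecortin partners and reelin-linked migration genes, 0 passed in ISP against Veh and 0 in Veh against control, and 3 passed in ISP against control, 1 higher and 2 lower, where 6.74% of all tested genes passed higher and 3.42% lower. Nde1, which encodes a partner of LIS1, rose, with a log2 fold change of 0.71 (edgeR adjusted p = 0.030), to 23.3 ± 5.43 CPM in ISP mice against 14.3 ± 0.942 CPM in control mice. Reln, the gene of the secreted migration cue reelin, fell by 0.39 on the log2 scale (adjusted p = 0.040), to 28.1 ± 1.71 CPM in ISP mice against 36.9 ± 3.42 CPM in control mice. Cdk5r2, a CDK5 activator gene, fell by 0.40 (adjusted p = 0.089). These 3 were named because they passed. Nde1 still passed with each of the 8 libraries left out in turn (adjusted p 0.014 to 0.089). Reln did not without ISP 14, ISP 18 or control 38 (up to 0.123), and Cdk5r2 passed only without ISP 16 or without control 21 (up to 0.221 otherwise). Without Veh 6, Reln passed lower in ISP against Veh and Dclk1 in Veh against control, and without control 19, Map1b passed lower in Veh against control. Dclk1, the closest relative of Dcx, averaged 1060 ± 124 CPM in ISP mice and 964 ± 103 CPM in Veh mice (log2 fold change 0.14, edgeR adjusted p = 0.546).

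Of 22 GABAergic interneuron genes, the list closest to Dlx1 and Dlx2, 0 passed in ISP against Veh and 0 in Veh against control. In ISP against control 1 passed lower, Sst (log2 fold change -0.38, edgeR adjusted p = 0.085), the somatostatin gene, where 3.42% of all tested genes passed lower. With 1 library left out, Sst passed only without ISP 12 or without control 21 (up to 0.216 otherwise), while Pvalb passed lower without ISP 16 and Npy without control 21. In Veh against control, Htr3a rose without Veh 6 or without control 19. Gad1, the main GABA-synthesizing enzyme gene, averaged 337 ± 19.7 CPM in ISP mice, 324 ± 13.3 CPM in Veh mice and 324 ± 27.4 CPM in control mice (ISP against Veh, log2 fold change 0.06, adjusted p = 0.722). The summed level of the list was 1686 to 1866 CPM in ISP mice, 1778 to 1890 CPM in Veh mice and 1758 to 1940 CPM in control mice.

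Genes of the stage before the neuroblast were set beside these. Of 12 neural stem and progenitor genes, 0 passed in ISP against Veh, 2 rose in Veh against control and 5 rose in ISP against control, and 0 fell. Of all tested genes, 1.03% rose in Veh against control and 6.74% in ISP against control. The 2 in Veh mice were Hopx (log2 fold change 0.71, edgeR adjusted p = 0.073) and Vim (1.42, adjusted p = 0.077), and the 5 in ISP mice were Vim (3.24, adjusted p = 0.025), Sox2 (0.49, adjusted p = 0.027), Thbs4 (4.28, adjusted p = 0.028), Fabp7 (1.37, adjusted p = 0.037) and Pax6 (0.56, adjusted p = 0.069). In ISP against control, Vim, Sox2 and Thbs4 passed with each of the 8 libraries left out (adjusted p up to 0.089), and without ISP 18 the log2 fold changes of Vim and Thbs4 were 2.52 and 2.90. Fabp7 failed without control 38 (0.107) and Pax6 failed when any one of 5 libraries was left out, ISP 14, ISP 18, control 19, control 36 or control 38 (up to 0.187). The count in ISP against control was 8 without ISP 16 and 3 without control 38. In Veh against control it was 1 without Veh 10, and 0 of 12 passed without Veh 2, control 21, control 36 or control 38. Hes5 passed lower without Veh 6 in ISP against Veh and without control 19 in ISP against control. Vim, Sox2, Hopx, Thbs4 and Fabp7 are also genes of astrocytes, Vim and Thbs4 of reactive ones. Of 11 reactive astrocyte markers, 2 of 9 tested rose in Veh against control and 5 of 8 tested rose in ISP against control. The count in ISP against control was 9 of 11 tested without ISP 12 and 3 of 8 without ISP 14 or without ISP 18, and in Veh against control it was 0 of 9 without control 21 and 1 of 9 without Veh 2, Veh 10, control 36 or control 38. The part of astrocytes in the stem cell list was not tested. Of 16 proliferation genes, 11 were tested in each comparison and 0 passed. In ISP against control, Pcna, Top2a and Tpx2, 3 of 12 tested, rose without ISP 16, and Top2a, 1 of 12, rose without ISP 12. The summed level was 70.2 to 101 CPM in ISP mice, 71.7 to 80.3 CPM in Veh mice and 67.6 to 71.7 CPM in control mice. The list sums were highest in ISP 18 for the stem and progenitor genes, at 526 CPM, and for the proliferation genes.

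**Figure D4:**
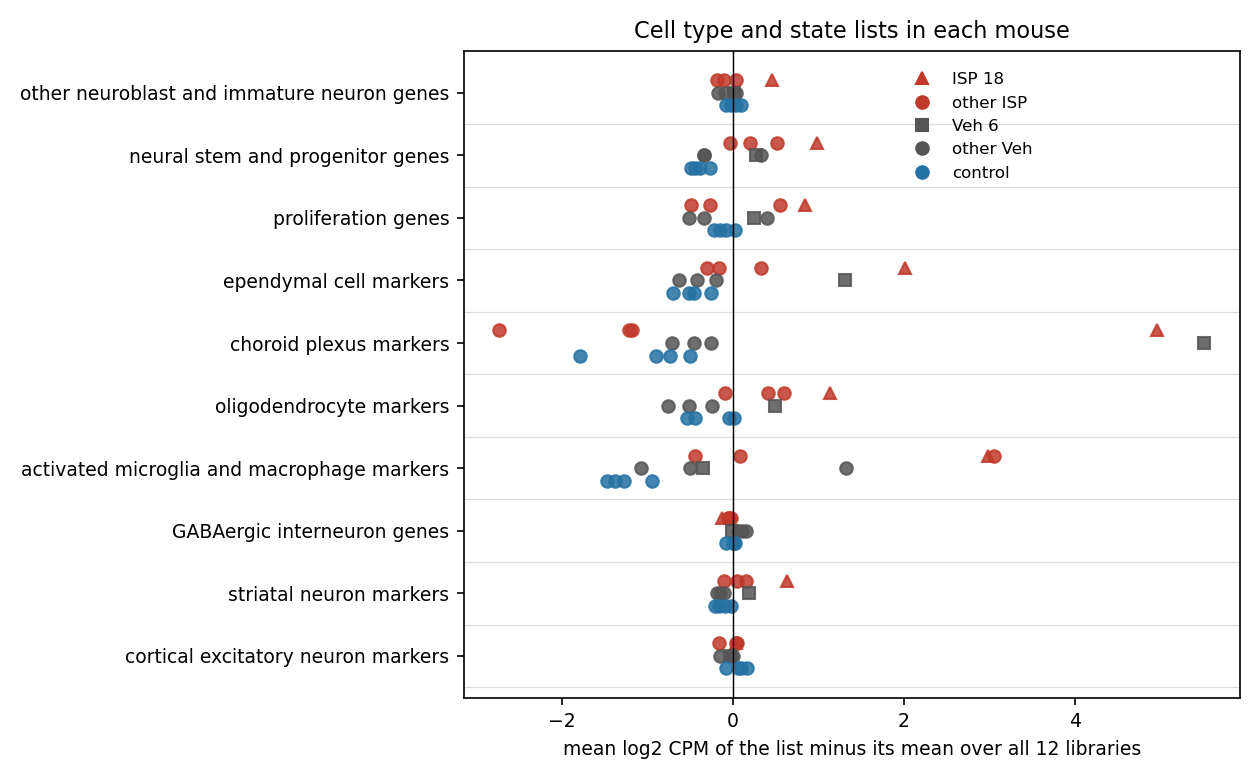
Mean log2 CPM of each gene list minus its mean over all 12 libraries, with 1 point per mouse, for ISP (top of each row), Veh (middle) and control mice (bottom). ISP 18 (triangle) is the highest library for the other neuroblast genes, stem and progenitor, proliferation, ependymal, oligodendrocyte and striatal lists, Veh 6 (square) is the highest for the choroid plexus list, and the interneuron list lies close to 0 in every mouse.

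Genes tied to Igfbpl1 and Cd24a by family or binding were also followed. Of 9 insulin-like growth factor, receptor and binding protein genes, 0 passed in ISP against Veh, 1 rose in Veh against control, Igf2 (log2 fold change 1.77, edgeR adjusted p = 0.095), and in ISP against control Igfbp5 rose (1.51, adjusted p = 0.020) and Igfbp6 fell (-0.65, adjusted p = 0.031). Both passed with each library left out (up to 0.079 and 0.093), and Igf2 passed only without Veh 8 (up to 0.225 otherwise). Of all tested genes, 1.03% rose in Veh against control, and 6.74% rose and 3.42% fell in ISP against control. Without Veh 6, Igfbp6 passed lower in ISP against Veh, and without ISP 16, Igf2 also rose in ISP against control. Igf2 had an SD of 30.4 CPM around a mean of 32.3 CPM in ISP mice and 38.0 around 50.7 CPM in Veh mice, against 1.17 around 15.1 CPM in control mice. Of 3 genes for CD24 binding partners, L1cam was the 1 tested, with 114 ± 15.1 CPM in ISP mice and 128 ± 3.55 CPM in Veh mice (log2 fold change -0.17, edgeR adjusted p = 0.409). Siglecg and Selp, the genes of a sialic acid-binding lectin and of P-selectin, averaged at most 0.138 CPM in any group.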

How the data were processed

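RNA was extracted from punches of frozen peri-infarct cortex, 1 mouse per library, enriched for poly(A) RNA and primed with random hexamers. The deposited values are raw integer counts per gene, which the authors made by HISAT2 alignment to mm10 and default HTSeq counting; tool versions are not given in the sources used here. No batch is given. For each comparison, edgeR 4.0.16 (R 4.3.3) was run on only the 8 libraries compared, after filterByExpr and TMM, by the quasi-likelihood test (glmQLFTest), with p-values adjusted by Benjamini-Hochberg over all tested genes and called under 0.1. The SE of a fold change was computed as its absolute log2 value divided by the square root of the test's F statistic. Its 95% confidence interval used this SE and the t distribution. CPM are TMM-normalized over all 12 libraries, and log2 CPM used a prior count of 2. Counting intervals are exact Poisson at 95%, and a count of 0 was read as up to 3 reads. These Poisson intervals cover counting error only, and reads are not independent molecules. The alternatives were DESeq2 1.42.0 with its Wald test, its size factors, limma-voom (limma 3.58.1) with quality weights, no filter, at least 10 counts in every library, all 12 libraries in 1 fit, GC content and length trends removed by loess (span 0.3), an adjusted p of 0.05, and libraries left out (for the other lists, added after the values were seen). The scripts were tested on simulated data. Libraries of a group were not repeats of 1 sample, with a chi-square per gene of 11.1 to 50.9.

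The genes and the 19 other lists were chosen with earlier results of these data known. Named beside the 6 genes were, for each, the 3 with the highest Pearson r over the 12 libraries, and up to 4 of each list by mean CPM. Some, not all, of the list genes that passed in Veh against control were also named. Genes named because they passed in ISP against control, or with a library left out, were chosen after their values were seen. Sequences were read from GENCODE M21 and compared with blastn 2.17.0. The other measurements of the study were not analysed here. A result on a member of the interneuron list is not reported here.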

Additional observations from a re-analysis of the deposited data

Results flagged for a closer look

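In the 18 groups of 4 mice, 6 genes by 3 groups, 4 held a mouse far from the rest by Dixon's test. Chance gives this in about 1 of 20 groups of independent, normally spread values. The groups here share libraries, with ISP 18 flagged for both Igfbpl1 and Cd24a, and Igfbpl1 counts are low, so that rate is only a rough guide. Igfbpl1 was 4.24 CPM in ISP 18, with the rest of the ISP mice at most 0.361 CPM. Igfbpl1 was 0.0343 CPM in control 19, which is 1 read where the other control mice had 0. A group with a single read always stands apart in this way, so the chance rate does not apply to it. Cd24a was 14.1 CPM in ISP 18 and at most 4.64 CPM in the rest of its group. Dlx1 was 28.3 CPM in ISP 14, where the rest of its group had at least 38.0 CPM.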

How the results depend on the processing

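No paired analysis was possible because the groups share no replicate numbers. For the 5 tested genes in 3 comparisons, 235 values under alternatives were compared with the main ones, of which 21 changed sign and 0 passed the threshold, and all that changed sign were of fold changes that had not passed. For ISP against Veh the log2 fold change of Dcx was -0.00463 with DESeq2 size factors, -0.00511 with DESeq2, -0.0886 with limma-voom, -0.13 with the GC and length trends removed, -0.12 without ISP 14 and ISP 18, and -0.12 to 0.0894 with 1 library left out. That of Sox4 was -0.0135 with limma-voom, -0.0510 with the trends removed, -0.21 without ISP 14 and ISP 18, and -0.0438 to 0.12 with 1 left out, and that of Cd24a was -0.0199 (without ISP 18) to 0.91. For Veh against control the log2 fold change of Cd24a was -0.15 (without Veh 6) to 0.22 with 1 library left out. For ISP against control that of Sox4 was -0.00134 with the trends removed and -0.11 without ISP 14 and ISP 18, and that of Dlx2 was -0.0518 (without control 19) to 0.28 with 1 left out. Of the 6 genes, 1 was called in ISP against control without a filter and 1 with DESeq2, Igfbpl1 both times, and leaving out ISP 18, chosen after the data were seen, ended both calls.

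Calls over all genes moved more. For ISP against Veh they were 402 with DESeq2 and 0 to 72 with 1 library left out, the highest without Veh 6. For Veh against control they were 18 at an adjusted p of 0.05, 510 without a filter, 1109 with DESeq2, 28 with all 12 libraries in 1 fit, 24 with the trends removed, and 0 (without control 21) to 461 (without control 19) with 1 left out, 6 without Veh 2, 6 without control 36, 84 without control 38, 111 without Veh 10 and 199 without Veh 8. For ISP against control they were 691 at an adjusted p of 0.05, 2392 with the trends removed, 90 without ISP 14 and ISP 18, and 420 (without ISP 14) to 2283 (without ISP 16) with 1 left out, 486 without control 38, 514 without ISP 18, 727 without control 36 and 811 without control 19. The cause was not tested. GC content and length were known for 98.1% to 98.2% of tested genes. Depth limits Igfbpl1, which had at most 11 reads outside ISP 18.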
